A study of Homo sapiens with 2 samples.

Results

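Death receptor signalling was described here through ING5 occupancy at 10 genes of the pathway, taken from all 19812 protein-coding genes with a transcription start site (TSS) on chromosomes 1 to 22 and X. They were 4 receptor genes (TNFRSF1A, TNFRSF10A, TNFRSF10B and TNFRSF10D), 3 adaptor genes (FADD, TRADD and RIPK1), the initiator caspase genes CASP8 and CASP10, and the caspase-like regulator gene CFLAR. A gene was counted as having a promoter peak when the summit of an ING5 ChIP-seq peak lay within 1000 bp of any of its annotated starts in GRCh38. The genes were grouped by their known function, with earlier results of these data known. The study set 1 ING5 ChIP library against 1 input DNA library, both from untreated HepG2 cells, an established line from a human liver tumour, to find genes that ING5 binds. ING5 binds methylated lysine on histone H3 through its PHD finger and works within complexes that acetylate histones. Each group had 1 library, so no value has a replicate, no difference was tested, and intervals cover counting error only. Of 10 liver genes looked up beside the label, among them ALB and HNF4A, 0 had a promoter peak, which allows a share of up to 30.8% (exact 95% interval) beside 30.9% of all protein-coding genes. These liver genes were picked with earlier results known, and the count does not settle what the cells were. The header of the peak list names the ChIP library B3, a name that no label uses, so that the list holds the ING5 library rests on the record it was deposited under.

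Death receptors are members of the tumour necrosis factor (TNF) receptor family with a death domain in their cytoplasmic tail. When a ligand binds, the tail recruits adaptors: TRADD and the kinase RIPK1 at TNFRSF1A, and FADD at the TRAIL receptors TNFRSF10A and TNFRSF10B. FADD in turn gathers CASP8 and CASP10, whose activation starts apoptosis, and CFLAR, which encodes c-FLIP, competes for the same platform. TNFRSF10D also binds TRAIL but has a truncated death domain and acts as a decoy. The receptor complex at TNFRSF1A can instead activate NF-kB through ubiquitin ligases and the IKK kinases, and when caspase activity is blocked it can lead to necroptosis through RIPK3 and MLKL.

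The promoter sequences below show how unlike the starts near these peaks are in CpG content. Each is a RefSeq window of 300 bases from GRCh38.p14, from 250 bases before a start to 50 from it, written 5′ to 3′ on the gene's strand with CpG dinucleotides in capitals. TNFRSF1A is on the minus strand at chr12:6342027-6342326, and FADD on the plus strand at chr11:70203046-70203345. RIPK1 is on the plus strand at chr6:3063717-3064016 and chr6:3068244-3068543, and CFLAR on the plus strand at chr2:201118466-201118765. LOC105373836, a long noncoding RNA gene, is on the minus strand at chr2:201116635-201116934, and CASP8, shown as a gene without a peak, on the plus strand at chr2:201260286-201260585.
TNFRSF1A: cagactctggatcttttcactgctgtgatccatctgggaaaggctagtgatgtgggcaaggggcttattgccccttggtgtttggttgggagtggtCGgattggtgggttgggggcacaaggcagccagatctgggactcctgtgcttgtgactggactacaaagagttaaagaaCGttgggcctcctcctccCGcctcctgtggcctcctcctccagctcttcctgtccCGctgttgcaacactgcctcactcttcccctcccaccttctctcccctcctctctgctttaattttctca
FADD: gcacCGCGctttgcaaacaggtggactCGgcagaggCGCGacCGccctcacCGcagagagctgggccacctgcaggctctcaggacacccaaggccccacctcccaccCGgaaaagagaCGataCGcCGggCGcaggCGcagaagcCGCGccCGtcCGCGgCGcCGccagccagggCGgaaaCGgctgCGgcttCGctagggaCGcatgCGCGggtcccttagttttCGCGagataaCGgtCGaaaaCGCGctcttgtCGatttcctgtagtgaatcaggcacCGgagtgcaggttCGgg
RIPK1, upstream start: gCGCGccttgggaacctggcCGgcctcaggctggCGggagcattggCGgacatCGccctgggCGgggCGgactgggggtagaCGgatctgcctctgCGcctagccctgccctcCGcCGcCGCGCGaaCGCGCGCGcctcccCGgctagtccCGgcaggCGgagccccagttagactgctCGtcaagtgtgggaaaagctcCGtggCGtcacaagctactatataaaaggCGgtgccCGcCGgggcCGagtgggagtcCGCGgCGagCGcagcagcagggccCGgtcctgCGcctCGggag
RIPK1, canonical start: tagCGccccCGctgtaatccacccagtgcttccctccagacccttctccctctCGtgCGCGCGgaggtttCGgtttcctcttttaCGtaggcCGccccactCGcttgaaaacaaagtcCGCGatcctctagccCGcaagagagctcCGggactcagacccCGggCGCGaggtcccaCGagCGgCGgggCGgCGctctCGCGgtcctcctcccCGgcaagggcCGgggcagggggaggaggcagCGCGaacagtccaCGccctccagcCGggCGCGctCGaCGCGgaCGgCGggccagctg
CFLAR, internal start: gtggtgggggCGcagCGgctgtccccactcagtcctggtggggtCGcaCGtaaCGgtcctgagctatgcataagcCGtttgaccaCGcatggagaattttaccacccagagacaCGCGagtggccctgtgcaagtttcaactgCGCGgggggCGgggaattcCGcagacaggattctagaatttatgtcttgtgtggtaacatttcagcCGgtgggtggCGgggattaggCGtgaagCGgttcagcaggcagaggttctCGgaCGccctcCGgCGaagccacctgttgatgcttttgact
LOC105373836: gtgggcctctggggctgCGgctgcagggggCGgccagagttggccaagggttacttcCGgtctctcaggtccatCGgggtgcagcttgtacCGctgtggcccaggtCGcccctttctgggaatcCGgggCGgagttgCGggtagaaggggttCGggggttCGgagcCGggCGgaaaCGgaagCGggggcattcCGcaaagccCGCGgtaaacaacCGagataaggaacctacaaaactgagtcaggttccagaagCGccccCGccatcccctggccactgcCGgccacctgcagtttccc
CASP8: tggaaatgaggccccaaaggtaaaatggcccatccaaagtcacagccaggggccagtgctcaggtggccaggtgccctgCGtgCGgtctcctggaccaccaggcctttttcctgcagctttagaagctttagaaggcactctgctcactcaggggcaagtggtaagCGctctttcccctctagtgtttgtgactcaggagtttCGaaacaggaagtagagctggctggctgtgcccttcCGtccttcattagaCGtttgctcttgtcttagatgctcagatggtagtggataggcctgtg
The CFLAR and LOC105373836 windows lay inside ING5 peaks over all 300 bases. The FADD window touched a peak with its last base, the TNFRSF1A window ended 31 bp before one, and the RIPK1 windows ended 59 and 125 bp before theirs. TNFRSF10A, TNFRSF10B, TNFRSF10D, TRADD and CASP10 are named without sequence.

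ING5 promoter peaks were found at 5 of the 10 genes, namely TNFRSF1A, TNFRSF10B, FADD, RIPK1 and CFLAR, and no peak was called at TNFRSF10A, TNFRSF10D, TRADD, CASP8 or CASP10. The share of 50% (exact Clopper-Pearson 95% interval 18.7 to 81.3) stands beside 30.9% of all protein-coding genes. The interval holds that value, but it treats the 10 chosen genes as random draws and is no test of a difference. Together the 5 genes had 8 promoter peaks, and 6 more summits lay inside TNFRSF1A, FADD and RIPK1 but over 1000 bp from any start. The nearest miss was a RIPK1 peak 1028 bp from a start, while the farthest that counted was another RIPK1 peak at 487 bp.

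**Figure D1:**
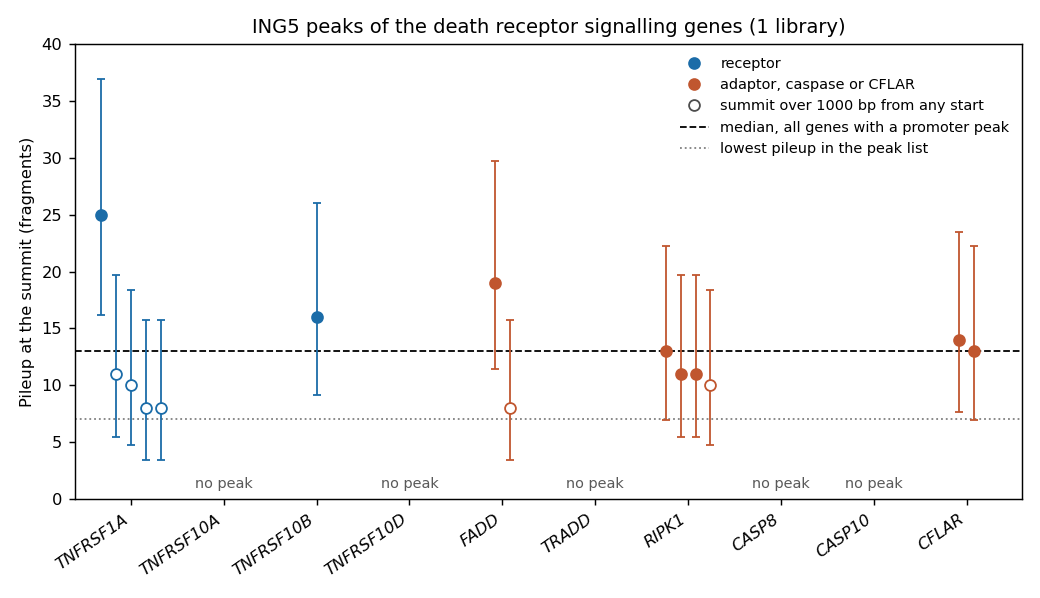
Pileup at the summit (fragments, y axis) of every ING5 peak with a summit in one of the 10 genes (x axis), with exact Poisson 95% intervals; filled points lie within 1000 bp of a start. TNFRSF1A stands highest with 25 fragments, all 5 best peaks are at or above the median of 13 fragments of all genes with a promoter peak, and 5 genes have none.

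Among the receptors, TNFRSF1A, which encodes the main TNF receptor of most cells, had the tallest peak of the 10 genes. The peak covered 1406 bp on chromosome 12 from 6340591 to 6341996, with 25 fragments at its summit (Poisson 95% interval 16.2 to 36.9) and 14.03-fold enrichment. Only 238 of the 8608 peaks of the list were more significant, and 28 others shared its p value. Of the 6126 genes with a promoter peak, 94.9% had a lower pileup and 97.6% a narrower best peak. The summit lay in intron 1, 307 bp downstream of the canonical start at 6342076 and 79 bp from another annotated start.

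TNFRSF1A also carried a run of smaller peaks behind its promoter. At 2499, 3506, 6171 and 6778 bp from the canonical start, all in intron 1, stood 4 further summits with 10, 8, 8 and 11 fragments. All 4 lay below the median pileup of the list, 12 fragments. With these, 5 summits lay inside the gene, and 5 or more were found inside 0.278% of protein-coding genes (55 of 19812).

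TNFRSF10B, which encodes the TRAIL receptor DR5, had 1 peak, and the other TRAIL receptor genes had none. The TNFRSF10B peak ran from 23067652 to 23068993 on chromosome 8 and was nearly as wide as that of TNFRSF1A, at 1342 bp. Its 16 fragments (9.15 to 25.98) made 9.17-fold enrichment, with 1292 peaks more significant. The summit was 452 bp downstream of the canonical start, in intron 1, and 350 bp from the start of an unnamed long noncoding RNA gene on the other strand.

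At 8p21 the TRAIL receptor genes lie side by side, and TNFRSF10B had the only peak among them. From its start to those of TNFRSF10C, TNFRSF10D and TNFRSF10A the distances were 33.9, 94.996 and 156.1 kb, and no summit lay in between. For TNFRSF10A and TNFRSF10D the nearest peak of the list was that of TNFRSF10B itself, 156.5 and 95.4 kb from their starts. TNFRSF10A shares its promoter with the divergent noncoding gene TNFRSF10A-DT, whose start is 119 bp away and which had no peak either. The lowest pileup in the list was 7 fragments, so lower occupancy at these genes was not detectable at this depth.

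Among the adaptors, FADD, which links the receptors to the caspases, had the tallest peak. It covered 308 bp on chromosome 11 from 70203345 to 70203652, with 19 fragments (11.4 to 29.7) and 10.8-fold enrichment. Its summit fell in exon 1, 219 bp downstream of the only annotated start. FADD was high but not wide: 85.2% of genes with a promoter peak had a lower pileup, yet 64.9% had a wider best peak. Its width lay between the quartiles of all these genes, 263 and 601 bp. A second summit of 8 fragments lay in its intron, 1202 bp from the start.

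RIPK1, the kinase that steers TNFRSF1A signalling towards NF-kB or death, had several lower peaks in place of a tall one. The first, with 13 fragments (6.92 to 22.2) and 7.55-fold enrichment, ran from 3064075 to 3064570 on chromosome 6, 4229 bp upstream of the canonical start. It sat by another annotated start, which lay 5 bp from its summit, and 298 bp downstream of the upstream RefSeq start whose window is printed above. Past the canonical start at 3068494 followed 3 peaks, all in intron 1, with summits at 274, 710 and 1251 bp and 11, 11 and 10 fragments. An unnamed long noncoding RNA gene on the other strand also has a start within 1000 bp of these 3 summits, 126 bp from the nearest. Of the 4 summits, 3 counted as promoter peaks, a number reached by 239 genes, 1.21% of all 19812 protein-coding genes, of which 6126 had any. RIPK1 has 18 annotated starts, against a median of 5 over all protein-coding genes, and the part of this in its number of peaks was not tested.

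TRADD, the first adaptor to bind TNFRSF1A, had no promoter peak. Its start lies 23 bp from that of FBXL8 on the other strand, and FBXL8 had none either. The nearest peak to the TRADD start, 8943 bp away with 9 fragments, had its summit 32 bp from the start of B3GNT9.

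Among the caspases and their regulator, CFLAR alone had peaks. Its stronger peak covered 883 bp on chromosome 2 from 201116103 to 201116985, with 14 fragments (7.65 to 23.5) and 8.09-fold enrichment, and its summit lay in exon 1, 293 bp downstream of the canonical start. The start of LOC105373836 on the other strand was 227 bp from this summit, and the LOC105373836 window printed above lay inside this peak. The second CFLAR peak covered 554 bp from 201118442 to 201118995, with 13 fragments (6.92 to 22.2) and 7.30-fold enrichment over a local background of 0.917 fragments. Its summit was 2734 bp from the canonical start and 182 bp downstream of the internal start whose window is printed above. At least 2 promoter peaks, as at CFLAR and RIPK1, were found at 1409 genes, 7.11% of all protein-coding genes, of which 6126 had any. CFLAR has 24 annotated starts, against a median of 5 over all protein-coding genes, and the part of this was not tested.

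CASP10 and CASP8 follow CFLAR on the same strand of 2q33, and no peak was called at any of their 10 and 22 annotated starts. The canonical starts of CASP10 and CASP8 lay 66.98 and 144.4 kb beyond that of CFLAR. The second CFLAR peak was the only one between the CFLAR and CASP8 promoters, and it was the nearest peak to both, 64.2 kb from the CASP10 start and 141.6 kb from the CASP8 start. Genes with more starts have more windows in which a summit can fall: the median number of starts was 13 over the 5 genes with a peak and 5 over the 5 without, and its part in the counts was not tested. The genes with a peak had 24 (CFLAR), 18 (RIPK1), 13 (TNFRSF1A), 7 (TNFRSF10B) and 1 (FADD) starts. Those without had 22 (CASP8), 10 (CASP10), 5 (TRADD), 4 (TNFRSF10A) and 1 (TNFRSF10D).

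Set against each other, receptors had a promoter peak at 2 of 4 genes (50%, interval 6.76 to 93.2) and adaptors and caspases with CFLAR at 3 of 6 (50%, interval 11.8 to 88.2). The receptors' best peaks had 25 and 16 fragments and widths of 1406 and 1342 bp, against 19, 14 and 13 fragments and 308, 883 and 496 bp at FADD, CFLAR and RIPK1. By pileup the classes overlapped, since FADD lay between the receptors, and the intervals of TNFRSF1A (16.2 to 36.9) and RIPK1 (6.92 to 22.2) overlapped too. By width they did not, both receptor peaks being wider than the others, but with 2 genes against 3 no test of that can be made. Receptor genes outside the 10 had narrower peaks than CFLAR: 604 bp at LTBR, 624 bp at TNFRSF21 and 645 bp at the wider FAS peak. FAF1, not a receptor gene, reached 1009 bp. Widths of 1000 bp or more, as at TNFRSF1A and TNFRSF10B, were found at 6.68% of all genes with a promoter peak.

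**Figure D2:**
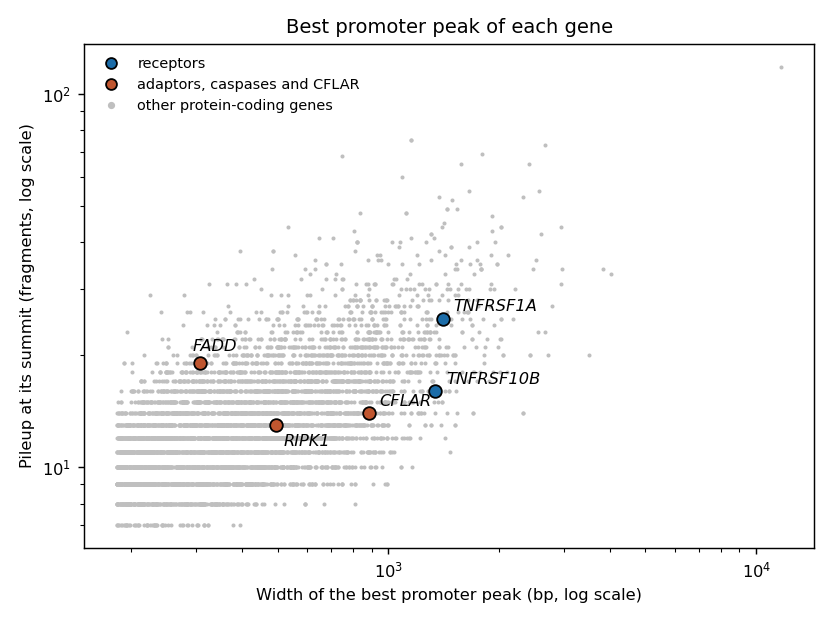
Width (bp, x axis, log scale) and pileup (fragments, y axis, log scale) of the best promoter peak of each of 6126 protein-coding genes, with the 5 genes of the pathway marked. TNFRSF1A and TNFRSF10B lie at the wide edge of the cloud, and FADD is tall for its 308 bp.

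Over the 5 genes the median enrichment of the best peak was 9.17-fold, against 7.01-fold over all 6126 genes with a promoter peak. The median pileup was 16 against 13 fragments and the median width 883 against 389 bp. All 5 best peaks stood over the genome-wide background of 0.853 fragments, the lowest in the list, as did 61.6% of the best peaks of all genes. None of the 5 had its summit within 1000 bp of a start of another protein-coding gene, where 31.4% of all best peaks did.

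The summits lay on the transcribed side of the start. For the best peak within 1000 bp of the canonical start, the offsets were 219 bp at FADD, 274 bp at RIPK1, 293 bp at CFLAR, 307 bp at TNFRSF1A and 452 bp at TNFRSF10B. All 5 were downstream, as were 82.6% of the 5520 such peaks of all genes. Their median of 293 bp fell between the quartiles of those peaks, 151 and 528 bp, around a median of 339 bp. Measured to the nearest of all annotated starts, the same summits lay 51 bp downstream at RIPK1, 50 bp at CFLAR, 79 bp at TNFRSF1A and 442 bp at TNFRSF10B, each from a start that 1 annotated transcript uses, and the FADD offset stayed at 219 bp. The best RIPK1 peak is another one, the upstream peak with its summit at −5 bp from its nearest start. All 5 genes kept a peak with canonical starts alone, the rule that 27.9% of protein-coding genes met.

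**Figure D3:**
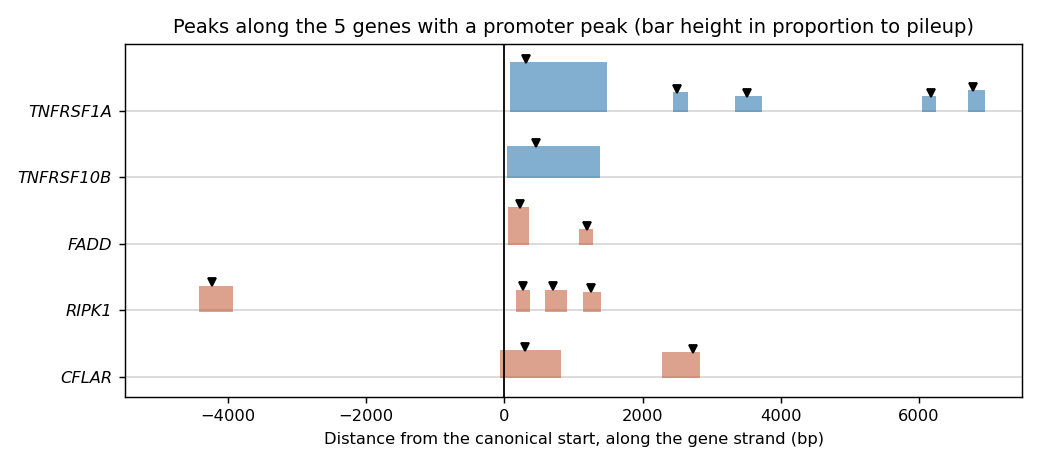
Peaks of the 5 genes with a promoter peak along the gene strand (distance from the canonical start in bp, x axis; 1 gene per row). Bars span the peaks, with height in proportion to pileup, and triangles mark summits; the summits nearest the start lie 219 to 452 bp downstream, and only RIPK1 has a summit upstream, at −4229 bp.

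TNFRSF1A, the gene with the tallest peak, had the lowest promoter CpG content of the windows printed above. Its window ended 31 bp before the peak, and the sequence under the peak was not read. The window held 4 CpG dinucleotides, 0.17 of the number expected from its base composition. FADD held 36 (1.08), RIPK1 36 (0.93) and 37 (1.01), and the printed internal CFLAR start 21 (0.83). CFLAR windows not printed, from 201128715 and 201132531 and away from its peaks, were lower, at 0 and 0.08. The median over 35116 windows of all RefSeq genes was 0.58, and 18.4% of them lay below TNFRSF1A. CASP8, without a peak, was also low, with 6 CpG dinucleotides and 0.27 of expectation at its canonical start. Among protein-coding genes with a window near the canonical start, split into 4 equal classes by this measure, 5.49% of the lowest class had a promoter peak and 52.6% of the highest. TNFRSF1A belonged to the lowest class, where 203 of 3701 genes had a peak and 6 genes, TNFRSF1A included, reached 25 fragments. FADD and RIPK1 belonged to the highest class. These classes were formed after the TNFRSF1A sequence had been seen.

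**Figure D4:**
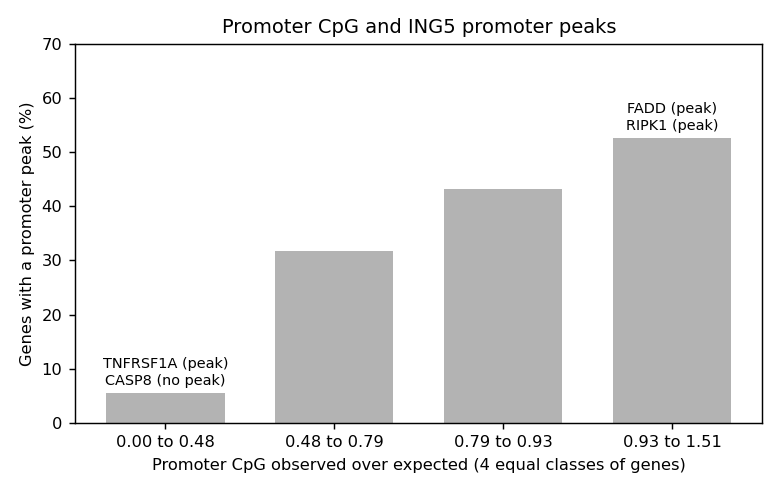
Share of protein-coding genes with an ING5 promoter peak (%, y axis) in 4 equal classes of genes by promoter CpG observed over expected (x axis), with the 4 pathway genes that have a window named over their class. The share is 5.49% in the class that holds TNFRSF1A and CASP8 and 52.6% in the class that holds FADD and RIPK1.

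Short motifs of general promoter factors differed between the windows as well. The letters GGGCGG, searched on both strands as were all motifs and counted without regard to overlap with the others, are the GC box. They occurred 0 times at TNFRSF1A and the printed CASP8 window, and 2 times at FADD and at each printed RIPK1 start. The internal CFLAR start held 1 match and LOC105373836 held 3, and 45.0% of all windows held them. CCAAT occurred once at TNFRSF1A and at the upstream RIPK1 start and at none of the others printed, against 34.6% of all windows. TATAAA occurred at the upstream RIPK1 start alone, against 11.5% of all windows. GGAA, the core of ETS sites, occurred in 95.5% of all windows, with a median of 3 matches. It was found 3 times each at TNFRSF1A and FADD and 2 times at each printed RIPK1 start and the internal CFLAR start. The printed window of CASP8, a gene without a peak, held 5 matches and LOC105373836 held 8. A match is a run of letters and not a site in use.

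Outside the 10 genes, promoter peaks were found at 34 of 80 other pathway genes with a start (42.5%, interval 31.5 to 54.1), against 30.9% of all protein-coding genes, and their median enrichment of 6.95-fold stands beside 7.01-fold over all genes with a peak. None of these lists was tested against the rest. No ligand gene had one: TNF, LTA, LTB, FASLG, TNFSF10 (TRAIL), TNFSF12, TNFSF14 and TNFSF15 made 0 of 8, which allows a share of up to 36.9%. Other TNF receptor family genes had 2 of 14 (14.3%, interval 1.78 to 42.8). LTBR, the lymphotoxin beta receptor gene, led them with 9.17-fold enrichment and 4 promoter peaks, 42.1 kb from TNFRSF1A, followed by TNFRSF21, which encodes the death receptor DR6, with 6.43-fold.

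Receptor-bound signalling genes had a peak at 7 of 16 (43.8%, interval 19.8 to 70.1). PIDD1, a death domain protein gene, stood highest with 14.03-fold and 25 fragments, but this peak was also at a start of the ribosomal protein gene RPLP2 and far upstream of the canonical PIDD1 start, at −5134 bp. TRAF2, an adaptor of TNFRSF1A, reached 7.99-fold, with 22 fragments where the local background was 1.88. DEDD2, a death effector domain gene, reached 9.17-fold, but its summit lay 980 bp from the nearest start, close to the limit of 1000 bp. FAF1, a FAS-associated factor gene, reached 7.96-fold, and TNFAIP3, which encodes the NF-kB inhibitor A20, 7.55-fold.

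Genes of the ubiquitin and IKK branch had peaks at 14 of 22 (63.6%, interval 40.7 to 82.8), most of them low. OTULIN, a linear-ubiquitin protease gene, had 21 fragments and 8.13-fold enrichment, and NFKBIA, the gene of the NF-kB inhibitor IkB-alpha, 14 fragments and 7.38-fold. RBCK1, a subunit gene of the linear ubiquitin ligase, reached 6.66-fold. RNF31, the catalytic subunit gene of that ligase, TAB3, an adaptor gene of the kinase TAK1, and NFKB1 each reached 6.47-fold with 11 fragments. The RNF31 peak was also at a start of PSME2. The median of the 14 genes was 5.67-fold, below the 7.01-fold of all genes with a promoter peak.

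Downstream of the receptor complex, death genes had peaks at 9 of 15 (60%, interval 32.3 to 83.7). HTRA2, a mitochondrial protease gene, reached 9.17-fold, at a summit that also had a start of AUP1 within 1000 bp. CASP2 reached 8.63-fold, DIABLO, the gene of the IAP antagonist SMAC, 8.09-fold, BAX 7.55-fold and APAF1, the apoptosome scaffold gene, 7.18-fold. The APAF1 summit also had a start of IKBIP within 1000 bp. BID, which links caspase 8 to mitochondria, had none. In the necroptosis branch MLKL (7.10-fold) and PGAM5 (6.95-fold) made 2 of 5 (40%, interval 5.27 to 85.3), and RIPK3 had no peak. Within 1000 bp of the canonical start, 25 of 29 best peaks of these pathway genes lay downstream.

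FAS, the gene of the FAS ligand receptor, has no GRCh38 start in the GENCODE table used and was counted in no list. Against its RefSeq starts on chromosome 10 it had peaks on both sides. A peak of 13 fragments (6.92 to 22.2), 645 bp wide and 7.55-fold enriched had its summit 150 bp downstream of the start at 88990914, and another of 10 fragments lay upstream, at −161 bp from the start at 88990798. ACTA2 also has a start within 1000 bp of each summit.

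**Figure D5:**
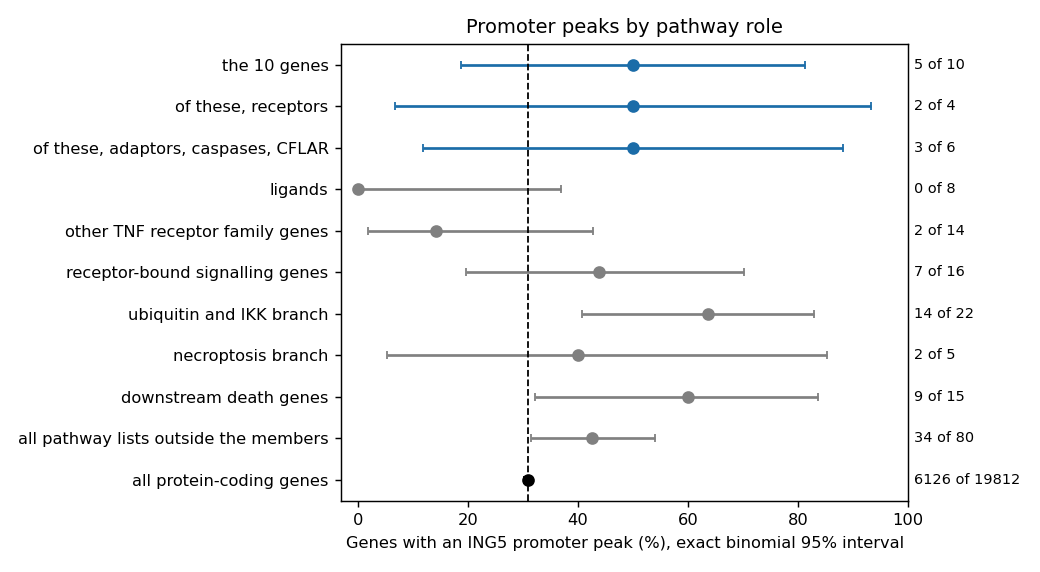
Share of genes with an ING5 promoter peak (%, x axis, exact binomial 95% intervals) in the 10 genes, their 2 classes and the other pathway lists, with the counts at the right; the dashed line is the 30.9% of all protein-coding genes. The shares run from 0 of 8 ligands to 14 of 22 genes of the ubiquitin and IKK branch, with 5 of 10 for the 10 genes; the lists were chosen with earlier results known and none was tested against the line.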

How the data were processed

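The data are the deposited ING5 peak list. Per the file headers, the authors called peaks with MACS 2.1.1.20160309 in paired-end mode against input at a p cutoff of 1e-05, from 12416160 ChIP and 9915170 input fragments of 183 bp. Per the submitters' processing notes, fastp 0.19.6, Bowtie2 and deepTools were used. The deposited pileup is a coverage signal in whole fragments, the deposited fold enrichment a linear ratio over local background (pseudocount 1), and the deposited significance −log10 of a p-value. Per the file headers q was not calculated, yet all 8608 peaks carry a deposited −log10 q-value above 0, so that column was not used. All were computed by the authors' peak caller, peak by peak.

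The processing notes name GRCh37, but 76.0% of summits had a protein-coding TSS within 1000 bp in GRCh38, against 13.7% in GRCh37, so positions were read as GRCh38. Starts came from the original exon positions in GENCODE 44. Promoter sequences are RefSeq's (GRCh38.p14), matched by symbol. Local background was recovered from pileup and fold, with a tolerance of 0.001 fragments. Intervals are exact Poisson (pileup) and exact binomial (shares). The 10 genes, their classes and the pathway lists were chosen with earlier results of these data known. The text names the top 5 genes of each list by peak p-value, 6 where they tied, and BID and RIPK3 as genes without one. FAS was read against RefSeq starts, and the liver genes were picked with earlier results known. Matching of peaks to starts was tested on simulated data. Python 3.11.15, pandas 2.3.3 and scipy 1.17.1 were used.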

Additional observations from a re-analysis of the deposited data

How the results depend on the processing

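All 5 genes kept a promoter peak with a window of 3000 bp, with any overlap, in the more significant 4304 peaks, with fold enrichment at or above the median, at the genome-wide background and with canonical starts. With a window of 200 bp 3 remained (CFLAR, RIPK1 and TNFRSF1A), 1 of them a receptor, and 16 of the 34 other pathway genes, since TNFRSF10B and FADD have summits farther out; all genes then stood at 13.5% in place of 30.9%. Among the 1000 most significant peaks 2 remained, TNFRSF1A and FADD, 1 in each class, with 1 other pathway gene; all genes then stood at 4.77%. The other pathway genes numbered 22 with fold enrichment at or above the median and 20 at the genome-wide background; both settings keep fewer peaks by construction, and all genes stood at 20.0% and 19.9% there, and at 19.3% in the more significant 4304 peaks. Against RefSeq starts the offset of the best peak changed sign at RIPK1 (298 in place of −5 bp) and CFLAR (−2259 in place of 50 bp), since other starts are listed there. The median enrichment ran from 8.09-fold to 12.4-fold. No paired analysis was possible because each group has 1 library. Depth limits calls to sites of at least 7 fragments.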
